A study of Mus musculus with 12 samples.

Results

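The genes described here are the 7 MHC class II presentation genes Cd74, H2-Aa, H2-Ab1, H2-Eb1, H2-DMa, H2-DMb1 and Ciita, in mouse blood stem and progenitor cells that differ in Tet2, a dioxygenase of methylated cytosine. They were taken by symbol, and all 7 were found among the 24538 gene symbols that the count tables of the series hold for each cell population. Bulk RNA sequencing was done on sorted bone marrow cells of 129/C57/B6 mixed mice aged 10 weeks, with 12 libraries in 6 groups. The groups are LSK cells (lineage-negative, Sca-1+, Kit+ cells, the fraction that holds the blood stem cells) and cells labelled MPP (multipotent progenitors), each from mice with wild-type Tet2 (WT), with Tet2 knocked out (KO) or with a mutant Tet2 (Mut). The titles of the MPP libraries read Lin instead. Neither the allele of KO nor the residues altered in Mut are stated in the labels, and no further allele or agent is named for any group. Each genotype was 1 pool of marrow from 2 mice, and each group holds 2 technical replicate libraries, so SDs, standard errors and p values describe how far libraries made from the same pool differ, and hold no variation among mice.

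MHC class II molecules present peptides from endocytosed protein to CD4 T cells. An alpha and a beta chain are assembled with the invariant chain, which fills the peptide groove until it is degraded in the endosome and the DM chaperone exchanges its last fragment for antigen. Transcription of these genes rests on an enhanceosome of RFX, CREB and NF-Y factors on the X and Y boxes of their promoters and on the transactivator CIITA, which docks on it. Dendritic cells, B cells and macrophages are the classical class II cells, and lower levels are known from blood stem and progenitor cells.

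In LSK cells all 7 genes were highest in Mut, and in each of them both Mut libraries lay above all 4 WT and KO libraries. Taken pair by pair, the Mut libraries lay above WT in 26.8% of all genes tested and above KO in 21.5%. The share of genes with both was not counted. Cd74, which encodes the invariant chain, and H2-Ab1, the beta chain of I-A, rose in Mut against WT by 2.67- and 3.07-fold. In the cells labelled MPP, edgeR called 0 of the 7 genes between genotypes (0.224% to 0.363% of all genes), and DESeq2 called Cd74 for KO against Mut. The difference between Mut and WT was itself larger in LSK than in MPP for Cd74, H2-Aa and H2-Ab1. Several of these calls depend on single libraries or on the fit, as given beside each.

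Levels are given as CPM, gene counts scaled to library size with TMM factors, and as CPM per kb of annotated exon where genes are compared with each other. The libraries held 9181027 to 23532847 gene counts, so a count of 0 allows up to 0.135 to 0.317 CPM (3 counts, counting error only). The LSK WT libraries stood apart: their correlation of log2(CPM + 1) across genes was 0.942, against 0.98 to 0.986 in the other groups, and they held 12470 and 12614 detected genes, against 13333 to 14264. Rn45s, the precursor of ribosomal RNA, took 3.65% and 3.69% of gene counts in LSK WT, 2.47% and 2.51% in LSK KO, 0.982% and 1.09% in LSK Mut and 0.873% to 1.103% in the libraries labelled MPP. In LSK cells this share thus fell in the order in which the class II genes stood higher, and its part in the results was not tested. Tet2 was at 62.7 and 87.3 CPM in LSK WT, 29.2 and 31.7 in KO and 43.4 and 44.3 in Mut. In the libraries labelled MPP KO it was at 34.9 and 34.9 CPM, within the 29.4 to 39.6 of MPP WT, so its level does not separate these 2 groups, and which exons the knockout removes is not stated. The markers of the LSK gate were higher in LSK than in MPP (in WT, Kit by 2.87-fold and Ly6a, which encodes Sca-1, by 4.34-fold). Cd3g, a chain of the T cell receptor complex, was at 11.9 to 26.7 CPM in the libraries labelled MPP and at 0 to 0.432 in LSK, and Siglech, of plasmacytoid dendritic cells, at 15.0 to 57.9 and 0 to 5.67. Of the 5 T cell markers, Cd3e, Cd3d and Cd3g were higher in every library labelled MPP than in every LSK library, while Cd4 was not. Cd8a was at or near 0 in both populations, except in LSK Mut replicate 2 at 1.78 CPM. The gates of the sort are not given, the Lin of the titles is not explained, and the source of these RNAs was not tested.

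Of the 7 genes, 5 lie together in the class II region of chromosome 17 (GRCm38): H2-DMa from 34119541 to 34139101, H2-DMb1 from 34153072 to 34160230, H2-Ab1 from 34257689 to 34269419 and H2-Eb1 from 34305867 to 34316674 on the plus strand, and H2-Aa from 34282744 to 34287823 on the minus strand. Ciita lies on the plus strand of chromosome 16 from 10480059 to 10528418. Exons of Brd2 on the opposite strand cover 10.4% of the exon length of H2-DMa, and those of Dexi 3.45% of Ciita. The strand setting of the counting is not given in the sources used here, so reads of these pairs cannot be told apart. H2-DMb1 and its neighbour H2-DMb2 are near-identical copies, between which reads may be split. The E alpha gene is inactive in strains of the b haplotype, to which C57BL/6 and 129 belong, and H2-Ea-ps, named after its values were seen, had 0 counts in all 12 libraries.

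The 250 bases before the start site are shown for H2-Aa and H2-Eb1, an alpha and a beta chain gene of the family that stood higher together, because the X and Y boxes that place the class II genes under CIITA lie there. Sequences are those of RefSeq on GRCm38.p6, 5′ to 3′ on the gene's strand, and 4 of the 7 genes had an entry. H2-Aa is chr17:34287824-34288073 on the minus strand. H2-Eb1 is chr17:34305617-34305866 on the plus strand, where 88 bases lie in annotated exons and 0 in UTRs. Capitals mark the letters CTNGNAACT, a form of the X box, and ATTGG, the Y box (CCAAT on the other strand).
H2-Aa: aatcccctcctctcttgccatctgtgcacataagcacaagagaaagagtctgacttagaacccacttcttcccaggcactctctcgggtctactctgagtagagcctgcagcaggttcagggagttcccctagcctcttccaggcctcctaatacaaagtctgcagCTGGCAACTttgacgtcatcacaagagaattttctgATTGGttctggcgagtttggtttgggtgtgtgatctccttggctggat
H2-Eb1: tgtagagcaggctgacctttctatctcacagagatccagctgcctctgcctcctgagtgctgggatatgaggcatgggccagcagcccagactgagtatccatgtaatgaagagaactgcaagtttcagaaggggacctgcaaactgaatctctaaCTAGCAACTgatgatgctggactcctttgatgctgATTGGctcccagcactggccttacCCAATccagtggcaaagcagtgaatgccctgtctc
In H2-Aa the first bases of the pair lie 84 and 48 bases before the start, with 27 bases between the motifs. In H2-Eb1 they lie 94 and 59 bases before it, with 26 between. The window of H2-DMb1, not shown because part of it is UTR, has the pair at 97 and 61 bases with 27 between. Of the windows at the 2 listed starts of H2-DMa, neither holds CTNGNAACT. Searched on both strands of 32851 such windows of the genome, CTNGNAACT was in 3.47%, ATTGG in 33.8%, and the ordered pair on the gene's strand in 0.167%. The letters CTNGNAACT were chosen after these sequences were seen, and a match is a description and not a binding site.

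Per kb of exon, H2-DMa and Cd74 were the most abundant of the 7 and Ciita the least in LSK cells. In LSK WT the levels were 91.2 ± 27.0 CPM per kb for H2-DMa, 44.7 ± 7.40 for Cd74, 19.9 ± 1.43 for H2-Ab1, 14.2 ± 3.37 for H2-DMb1, 5.10 ± 4.15 for H2-Eb1, 2.81 ± 1.14 for H2-Aa and 0.0375 ± 0.00608 for Ciita (SD, n = 2). In LSK Mut they were 127 ± 5.46 for H2-DMa, 121 ± 1.03 for Cd74, 62.0 ± 1.56 for H2-Ab1, 24.1 ± 2.95 for H2-Eb1, 20.3 ± 0.629 for H2-DMb1, 16.0 ± 1.01 for H2-Aa and 1.39 ± 0.308 for Ciita. H2-Eb1 thus stood above H2-DMb1 in Mut and below it in WT, where its 2 libraries ranged most widely. Exon lengths join all annotated isoforms, so the level per kb of a gene with long rare isoforms is an underestimate.

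**Figure D1:**
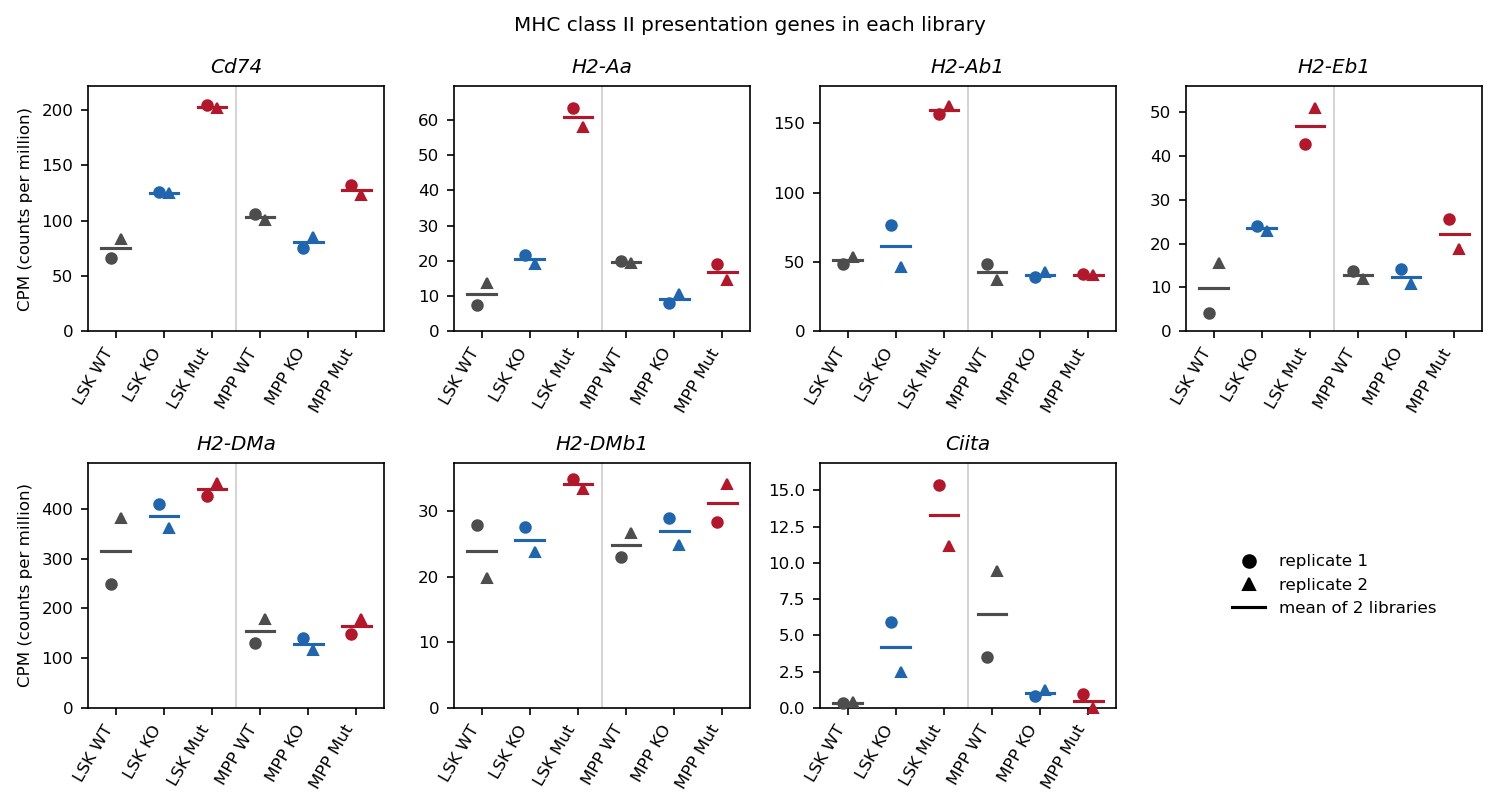
CPM of the 7 genes in each of the 12 libraries, with LSK groups left and MPP groups right of the vertical line. Circles and triangles are replicates 1 and 2, bars the mean of 2 libraries, and the vertical axes start at 0. Both LSK Mut libraries lie above the other LSK libraries in all 7 panels. Over all genes tested, they lie above WT in 26.8% and above KO in 21.5%.

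The chains of the class II molecules were described first. H2-Aa, the alpha chain of I-A, was at 7.60 and 13.7 CPM in LSK WT, 21.8 and 19.2 in LSK KO and 63.5 and 58.1 in LSK Mut. The 3 genotypes did not overlap, and the WT library with the lower value is replicate 1. In the libraries labelled MPP it was at 19.9 and 19.3 CPM in WT, 8.02 and 10.5 in KO and 19.1 and 14.7 in Mut, so that KO was low there and not intermediate. Across the 6 groups LSK Mut stood alone at the top, LSK KO and MPP WT overlapped, and so did LSK WT and MPP KO at the bottom.

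H2-Ab1, its beta chain, was at 48.5 and 53.7 CPM in LSK WT, 76.6 and 46.2 in LSK KO and 156.5 and 162.2 in LSK Mut. KO overlapped with WT, and Mut stood clear of both. The libraries labelled MPP were at 48.6 and 36.9 CPM in WT, 38.9 and 42.8 in KO and 41.3 and 40.3 in Mut, all overlapping. H2-Ab1 was thus at a common level in 5 groups, each of which overlapped with its neighbour in the order of means, and high in LSK Mut.

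H2-Eb1, the beta chain of I-E, was at 4.22 and 15.6 CPM in LSK WT, 24.1 and 22.9 in LSK KO and 42.8 and 50.9 in LSK Mut. The WT libraries differed from each other most, while the genotypes did not overlap. In MPP the libraries labelled WT were at 13.7 and 12.0 CPM, those labelled KO at 14.1 and 10.8 and those labelled Mut at 25.6 and 18.8. There Mut was above the other genotypes, which overlapped with each other and with LSK WT.

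The chaperones were less uniform. Cd74 lies on chromosome 18, from 60803848 to 60812652 on the plus strand. It was at 66.3 and 83.9 CPM in LSK WT, 125.7 and 125.0 in LSK KO and 204 and 202 in LSK Mut, with no overlap. In MPP it was at 106.2 and 100.6 CPM in WT, 75.6 and 85.6 in the libraries labelled KO and 133 and 123 in Mut, again with no overlap but with KO lowest. MPP Mut overlapped with LSK KO, and MPP KO with LSK WT.

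H2-DMa, the alpha chain of the DM chaperone, was at 248.7 and 380.5 CPM in LSK WT, 410 and 361 in LSK KO and 425.9 and 452.5 in LSK Mut. WT and KO overlapped, and Mut lay above them. The libraries labelled MPP were at 131 and 178 CPM in WT, 141 and 115 in KO and 148.5 and 178.5 in Mut. All 6 were thus below all 6 LSK libraries (LSK above MPP within a genotype: 26.1% to 34.3% of all genes). H2-DMb1, its beta chain, ranged least: 27.9 and 19.9 CPM in LSK WT, 27.6 and 23.8 in KO, 34.9 and 33.4 in Mut, and in MPP 23.0 and 26.7 in WT, 28.9 and 24.9 in KO and 28.3 and 34.1 in Mut. Each of its groups overlapped with the next in the order of means.

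Ciita, the transactivator, was at 0.317 and 0.399 CPM in LSK WT (3 and 5 counts, at or near the floor of 3 counts), 5.91 and 2.44 in LSK KO and 15.3 and 11.2 in LSK Mut, with no overlap. In MPP it was at 3.53 and 9.40 CPM in WT, 0.809 and 1.25 in the libraries labelled KO and 0.944 and 0 in Mut. WT was thus the highest genotype in MPP and the lowest in LSK, and KO and Mut overlapped in MPP. LSK KO overlapped with MPP WT, and MPP KO, MPP Mut and LSK WT formed a low end in which MPP Mut overlapped with both.

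In LSK cells, Mut was compared with WT in a fit of all 6 LSK libraries, with edgeR's quasi-likelihood test and Benjamini-Hochberg adjustment over 13170 genes. Of the 7 genes 2 were called at an adjusted p below 0.05, both higher (Cd74 and H2-Ab1), against 1.28% of all genes in either direction and 0.539% higher. Cd74 rose by 1.42 on the log2 scale (SE 0.188, adjusted p = 0.0292) and H2-Ab1 by 1.62 (SE 0.281, adjusted p = 0.0476). Larger but less precise differences missed the threshold: 2.49 for H2-Aa (SE 0.448, adjusted p = 0.0513), 2.21 for H2-Eb1 (SE 0.64, adjusted p = 0.138) and 5.16 for Ciita (SE 1.04, adjusted p = 0.0639). The DM genes had smaller differences that were not called, 0.46 for H2-DMa (95% interval -0.0135 to 0.934) and 0.50 for H2-DMb1 (-0.443 to 1.44). H2-DMa was called under spike-in scaling. At an unadjusted p below 0.05 there were 5 of 7 (19.1% of all genes). In 7 of 7 genes the Mut libraries lay above the WT libraries, which held for 26.8% of all genes tested. The calls rest on every library but those of WT: without LSK KO replicate 1 or 2 or LSK Mut replicate 1 or 2 neither gene was called (adjusted p of the pair from 0.138 to 0.35), at differences between 1.41 and 1.65. Both calls were also lost with the spread of only the groups compared (adjusted p = 0.171 for each) and with a replicate block (0.0528 and 0.0737), and H2-Ab1 lost its call with DESeq2-type size factors (0.05). Without LSK WT replicate 1, 5 of the 7 genes were called, among 2430 of 14077 genes tested, and without replicate 2, 6 of the 7, among 2631 of 14073, against 168 of 13170 with all libraries.

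LSK KO lay between WT and Mut. Against WT, all 7 differences were positive, with a median of 0.72 against 0 over all genes, and 0 of 7 were called by edgeR (0.0456% of all genes). At an unadjusted p below 0.05 there were 2 (13.8% of all genes), Cd74 at 0.72 (SE 0.186, adjusted p = 0.233) and Ciita at 3.49 (SE 0.978, adjusted p = 0.253), and the same 2 genes were called by DESeq2. The KO libraries lay above the WT libraries in 4 of 7 genes (25% of all genes tested). With each LSK library left out in turn, the difference from WT ranged from 0.556 to 0.910 for Cd74 and from 0.557 to 1.42 for H2-Aa. It ranged from 0.565 to 2.47 for H2-Eb1 and from 2.73 to 3.98 for Ciita. Those of H2-Ab1 (-0.156 to 0.554), H2-DMa (-0.00552 to 0.623) and H2-DMb1 (-0.127 to 0.347) changed sign. Against Mut, all 7 differences of KO were negative, with a median of -0.995, and the KO libraries lay below those of Mut in 7 of 7 genes (21.5% of all genes). By edgeR 0 of 7 were called (0.0607% of all genes), with 3 at an unadjusted p below 0.05 (4.24% of all genes): Cd74 at -0.70 (SE 0.185, adjusted p = 0.737), H2-Aa at -1.57 (SE 0.433, adjusted p = 0.791) and H2-Ab1 at -1.38 (SE 0.278, adjusted p = 0.46). DESeq2 called 2, Cd74 and H2-Ab1, and edgeR called H2-Aa and H2-Ab1 without either LSK WT library. The comparisons of KO and Mut with WT share the WT libraries, and the intermediate place of KO is given by the levels above.

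**Figure D2:**
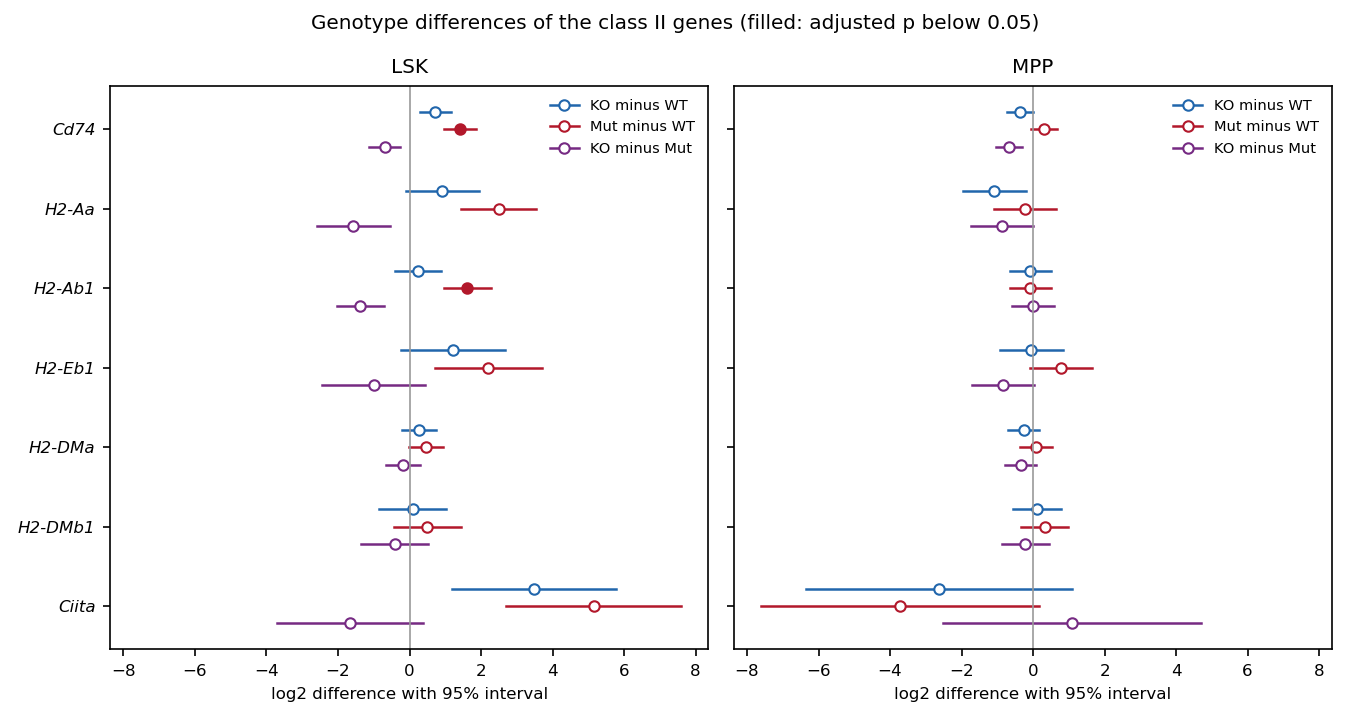
Log2 differences between genotypes for the 7 genes in LSK (left) and MPP (right), with 95% intervals from the edgeR fit of each population. Filled points passed the adjusted threshold, which holds for Cd74 and H2-Ab1 in LSK Mut against WT. In the MPP panel, Cd74, H2-DMa and H2-DMb1 change sign for Mut minus WT under spike-in scaling.

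In the cells labelled MPP, edgeR called 0 of the 7 genes in each genotype comparison. For KO against WT, 0 of 7 were called by edgeR (0.363% of 12947 genes) and 0 by DESeq2, and 1 had an unadjusted p below 0.05 (8.47% of all genes): H2-Aa at -1.08 (SE 0.382, adjusted p = 0.477). The libraries labelled KO lay below WT in 3 of 7 genes, H2-Aa, Cd74 and Ciita (20.1% of all genes). Cd74 differed by -0.36 (SE 0.16, adjusted p = 0.593) and Ciita by -2.64 (SE 1.62, adjusted p = 0.723). The intervals of H2-Ab1 (-0.654 to 0.508) and H2-Eb1 (-0.915 to 0.826) allow changes of either sign.

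For MPP Mut against WT, 0 of 7 were called by edgeR (0.224% of all genes) and 0 by DESeq2, and 0 had an unadjusted p below 0.05 (9.75% of all genes). Under TMM scaling Cd74, H2-Eb1 and H2-DMb1 had Mut libraries above WT (19.8% of all genes), of which Cd74 and H2-DMb1 change sign under spike-in scaling, and H2-Aa and Ciita had them below (19.4%). H2-Eb1 differed by 0.79 (SE 0.379, adjusted p = 0.561), against 2.21 in LSK. Ciita differed by -3.72 (SE 1.70, adjusted p = 0.526), with 1 Mut library at 0 counts. For MPP KO against Mut, 0 of 7 were called by edgeR (0.239% of all genes), and 1 had an unadjusted p below 0.05 (9.48%), Cd74 at -0.67 (SE 0.16, adjusted p = 0.238), which DESeq2 called. The KO libraries lay below Mut in 4 of 7 genes (19.9% of all genes), Cd74, H2-Aa, H2-Eb1 and H2-DMa, of which H2-DMa changes sign under spike-in scaling.

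LSK and MPP were compared within each genotype in a fit of all 12 libraries (14033 genes). H2-DMa was higher in LSK in all 3 genotypes. Under TMM scaling Cd74, H2-Aa, H2-Eb1 and Ciita had the lower mean in LSK in WT and the higher one in KO and Mut. With spike-in scaling the difference in WT was positive for Cd74, H2-Aa and H2-Eb1 and about 0 for Ciita (0.004509). H2-DMa was 2.04-fold higher in WT (log2 1.03, SE 0.215, adjusted p = 0.00536), 3-fold in KO (1.59, SE 0.217, adjusted p = 0.000639) and 2.69-fold in Mut (1.43, SE 0.216, adjusted p = 0.00206). Its calls in KO and Mut held with each library left out in turn, and the call in WT was lost without MPP WT replicate 1 (0.83, adjusted p = 0.0537) and with the spread of only the groups compared (1.046, adjusted p = 0.0823). In WT it was the only member called, 1 of 7 (24% of all genes in either direction, 10.2% higher in LSK), and the only one with all LSK libraries above MPP (26.1%). Cd74 (-0.46, SE 0.167, adjusted p = 0.0683), H2-Aa (-0.88, SE 0.408, adjusted p = 0.144) and Ciita (-4.14, SE 1.47, adjusted p = 0.0644) had LSK libraries below MPP in WT (30.7% of all genes), with the sign under spike-ins given above. DESeq2 called Cd74, H2-DMa and Ciita in WT, and without LSK WT replicate 2 edgeR called 4 genes.

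In KO, 2 of 7 were higher in LSK (15.2% of all genes called, 7.03% higher), Cd74 by 1.56-fold (log2 0.64, SE 0.167, adjusted p = 0.0263) and H2-DMa. The LSK libraries lay above MPP in 6 of 7 genes (34.3% of all genes), all but H2-DMb1. The call of Cd74 was lost without LSK KO replicate 1 or 2, LSK Mut replicate 1 or 2, or MPP KO replicate 1 or 2 (adjusted p from 0.052 to 0.191). In Mut, 4 of 7 were higher in LSK (8.76% of all genes called, 3.55% higher). These were H2-Ab1 by 3.91-fold (1.97, SE 0.273, adjusted p = 0.0012), H2-Aa by 3.59-fold (1.85, SE 0.413, adjusted p = 0.0183), H2-DMa, and Cd74 by 1.59-fold (0.67, SE 0.166, adjusted p = 0.03). The LSK libraries lay above MPP in 6 of 7 genes there too (29.9% of all genes), again all but H2-DMb1. H2-Ab1 and H2-DMa kept their calls with each library left out. H2-Aa lost its call without LSK Mut replicate 1 or 2 or MPP Mut replicate 1 or 2 (adjusted p from 0.077 to 0.141), and Cd74 without those, LSK KO replicate 1 or 2 or MPP WT replicate 1 (adjusted p from 0.0504 to 0.178). Ciita, at 4.75 (SE 1.48), had an adjusted p of 0.0738.

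**Figure D3:**
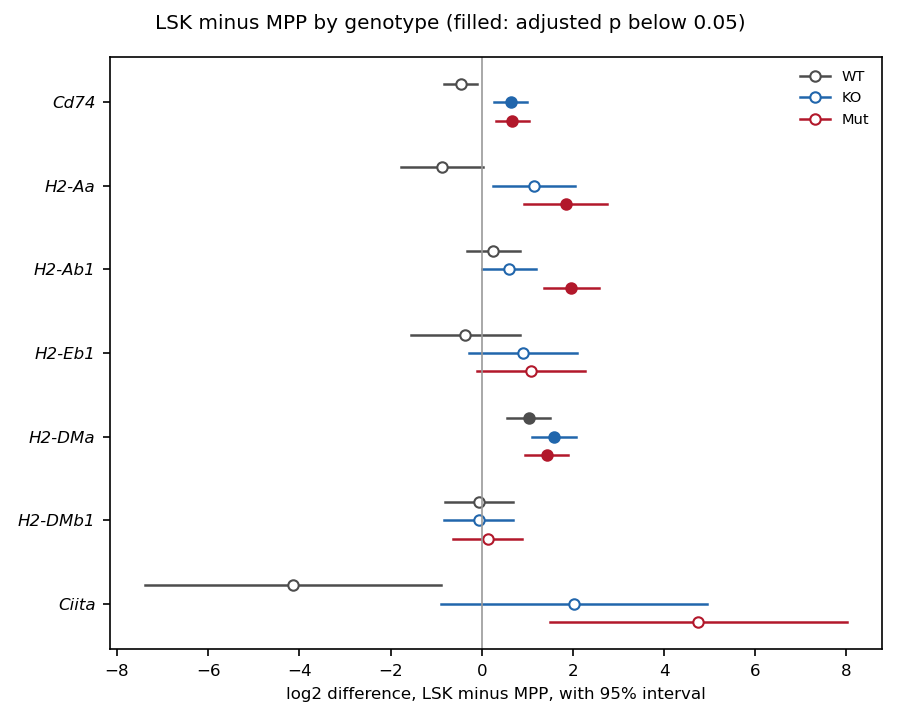
Log2 difference of LSK minus MPP for each of the 7 genes in WT, KO and Mut, with 95% intervals from the fit of all 12 libraries under TMM scaling, and filled points where the adjusted p was below 0.05. H2-DMa is filled in all 3 genotypes, H2-Aa and H2-Ab1 in Mut, and Cd74 in KO and Mut. Under spike-in scaling the points left of 0 in WT move to the right of it, except that of Ciita, which moves to about 0 (0.004509).

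Whether a genotype acted differently in the populations was tested as the difference of its effects, LSK minus MPP. For Mut against WT, 3 of 7 were called, all with a larger effect in LSK (2.53% of all genes called, 1.52% in that direction). The difference was 1.13 for Cd74 (SE 0.236, adjusted p = 0.032), 2.72 for H2-Aa (SE 0.58, adjusted p = 0.0349) and 1.71 for H2-Ab1 (SE 0.378, adjusted p = 0.0393). At an unadjusted p below 0.05 there were 4 (17% of all genes). For Ciita the difference was 8.89 (SE 2.08, adjusted p = 0.0517), a value that depends on how 0 counts in 1 library are treated. H2-Eb1 was at 1.44 (SE 0.765, adjusted p = 0.373), and the DM genes had intervals of -0.265 to 1.06 (H2-DMa) and -0.872 to 1.25 (H2-DMb1). Of the 12 libraries, leaving out either LSK WT library kept the 3 calls. Without LSK KO replicate 1 or 2 only H2-Ab1 was called, and without any 1 of the LSK Mut, MPP WT, MPP KO or MPP Mut libraries none of the 3 was, with adjusted p from 0.0546 to 0.147 where Cd74, H2-Aa or H2-Ab1 lost its call.

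For KO against WT the same difference was called in 0 of 7 by edgeR (0.727% of all genes), with 3 at an unadjusted p below 0.05 (12.4% of all genes). These were Cd74 at 1.099 (SE 0.237, adjusted p = 0.0687), H2-Aa at 2.02 (SE 0.578, adjusted p = 0.16) and Ciita at 6.15 (SE 1.97, adjusted p = 0.215), and DESeq2 called the same 3. Without LSK WT replicate 1, Cd74 was called, and without replicate 2, Cd74, H2-Aa and H2-Eb1 were. These differences rest on the libraries labelled MPP KO, which Tet2 does not set apart from MPP WT.

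The other genes of the class II pathway did not pass the test in LSK Mut. Of the other chains and chaperones (H2-DMb2, H2-Oa, H2-Ob and H2-Eb2), 0 of 4 were called for LSK Mut against WT by edgeR (1.28% of all genes). An unadjusted p below 0.05 was found for 0 of them (19.1% of all genes). Their median was -0.02, against 0.01 over all genes and 1.62 for the 7 genes. H2-Ob, a chain of DO, which restrains DM, was at 0.91 (SE 0.421, adjusted p = 0.293), and its partner H2-Oa at -0.15 (SE 0.305, adjusted p = 0.83). The lysosomal proteases and the reductase Ifi30 had a median of 0.29, with 0 of 5 past the threshold and 0 of 5 at an unadjusted p below 0.05. Ctsb differed by 0.29 (SE 0.223, adjusted p = 0.516). Ctss, the cathepsin that degrades the invariant chain in many class II cells, differed by -0.10 (SE 0.355, adjusted p = 0.913). Neither of the 2 ubiquitin ligases that turn class II molecules over, March1 and March8, was called, nor was the 1 of 3 co-stimulatory genes with enough counts to test, and 0 of these had an unadjusted p below 0.05.

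Of the 7 genes for the RFX, NF-Y and CREB factors of the X and Y boxes, 0 were called for LSK Mut against WT (1.28% of all genes). An unadjusted p below 0.05 was found for 2 (19.1% of all genes), and the median was -0.43. In 5 of 7 the Mut libraries lay below those of WT (20.3% of all genes). Rfx5 was at 122 and 68.8 CPM in LSK WT, 55.7 and 44.0 in KO and 44.0 and 51.7 in Mut, and Mut differed from WT by -1.01 (SE 0.341, adjusted p = 0.18). Creb1 differed by -0.43 (SE 0.236, adjusted p = 0.363), Rfxap by -0.37 (SE 0.367, adjusted p = 0.638) and Nfyb by 0.05 (SE 0.309, adjusted p = 0.952). In MPP the difference of Rfx5 was 1.16 (SE 0.318, adjusted p = 0.29). Under TMM scaling the difference between the populations was called at -2.16 (SE 0.48, adjusted p = 0.0403), opposite in sign to those of Cd74, H2-Aa and H2-Ab1. The alternative fits were not read out for the list genes, so how far this call holds was not tested. With spike-ins as the scale the median of all genes stood at 1.1 for LSK Mut against WT and 1.74 for the difference of Mut effects. In LSK that is more than the size of the Rfx5 difference and of the list's median. Rfx5 was also 5.51-fold higher in LSK than in MPP in WT (adjusted p = 0.000548).

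Interferon gamma is the classical inducer of Ciita, by way of its receptor, JAK kinases and IRF1. Of the 8 genes of that axis, 0 were called for LSK Mut against WT (1.28% of all genes). An unadjusted p below 0.05 was found for 1 (19.1% of all genes), and the median was 0.15. Irf1 differed by 0.23 (SE 0.164, adjusted p = 0.488), Jak1 by 0.21 (SE 0.171, adjusted p = 0.545) and Ifngr1, a receptor chain, by 0.49 (SE 0.201, adjusted p = 0.246). Under TMM scaling, which sets levels against the bulk of genes, Ifngr1 was lower in LSK than in MPP in all 3 genotypes, by 3.80-fold in WT, 4.42-fold in KO and 2.61-fold in Mut (adjusted p = 1.07e-05, 9.47e-06 and 0.000261). The other pathway genes called between the populations included H2-Ob, 3.61-, 3.30- and 3.81-fold higher in LSK in WT, KO and Mut, and Ctsb and Ifi30, lower in LSK in all 3 under TMM scaling. With spike-ins as the scale the median log2 difference of the genes tested stood at 4.17, 4.66 and 5.88 in these comparisons, which is more than the differences of Ifngr1 and Ctsb.

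Class I presentation, the route for cytosolic antigen in most cells, had positive differences in 13 of 13 genes in LSK Mut against WT. Of these, 2 were called higher (0.539% of all genes). B2m, the light chain of class I, rose by 1.93-fold (log2 0.95, SE 0.0797, adjusted p = 0.00593). H2-D1, a heavy chain, rose by 1.33-fold (0.41, SE 0.0709, adjusted p = 0.0476). B2m was at 1652 and 1854 CPM in LSK WT, 2791 and 2563 in KO and 3415 and 3445 in Mut, the same order of genotypes as Cd74. The median of the list was 0.45, and 11 of 13 genes had Mut libraries above WT (26.8% of all genes). In MPP, B2m was lower under TMM scaling in the libraries labelled KO than in Mut (-0.34, SE 0.0473, adjusted p = 0.0355). With spike-ins as the scale the median of all genes in that comparison stood at 0.649, which is more than the size of this difference. The Mut effect was larger in LSK than in MPP for B2m (0.68, SE 0.0995, adjusted p = 0.00824) and Calr (0.73, SE 0.149, adjusted p = 0.029), against 1.52% of all genes. The KO effect was larger in LSK for B2m (0.66, SE 0.0995, adjusted p = 0.0277) and H2-D1 (0.54, SE 0.0928, adjusted p = 0.037). Of all genes, 0.727% were called for the KO effect in either direction. H2-K1, the other classical heavy chain, differed by 0.37 in LSK Mut (SE 0.0668, adjusted p = 0.0501).

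**Figure D4:**
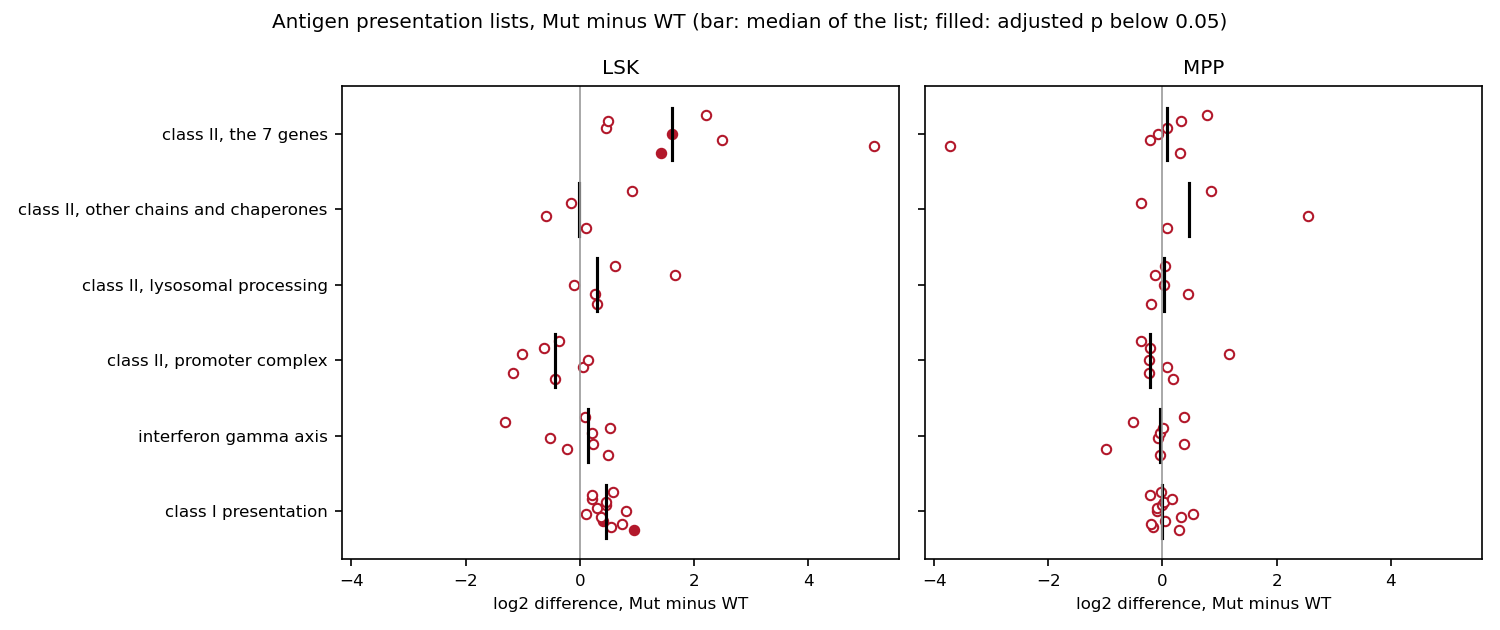
Log2 difference of Mut minus WT for each gene of the class II, interferon gamma and class I lists in LSK (left) and MPP (right), with the median of each list as a bar and filled points where the adjusted p was below 0.05. The median of the 7 class II genes is 1.62 in LSK and 0.08 in MPP, and that of the class I list 0.45 and -0.01.

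In bulk samples, more cells that carry an RNA and more RNA per cell cannot be told apart, so the markers of classical class II cells were measured beside these genes. The summed CPM of the 7 genes was 404 to 568 in LSK WT, 601 to 691 in LSK KO and 943 to 970 in LSK Mut. Over the same groups the 8 dendritic cell markers summed to 2.74 and 36.0 CPM in WT, 14.6 to 23.6 in KO and 8.70 to 14.4 in Mut, so the Mut libraries lay within the range of WT. The number of these markers with a count was 2 of 8 in each WT library (Itgax and Ccr7), 6 to 8 in KO and 5 to 8 in Mut. Itgax and Ccr7, at 20.7 and 15.3 CPM in WT replicate 2, set the upper end of WT. The others had 0 counts in both WT libraries. In Mut, Xcr1 was at 0.896 and 1.40 CPM, Cd209a at 0.616 and 0.918, Zbtb46 at 0.224 and 1.73 and Siglech at 1.01 and 0.108. Batf3 and Clec9a had 0 counts in Mut replicate 2. The 7 macrophage markers summed to 21.4 to 30.6, 20.8 to 42.0 and 29.2 to 36.8 CPM, overlapping in all 3 genotypes, with Cd68 as the largest part in most libraries. The number of them with a count was 2 to 3 in WT, 5 to 7 in KO and 4 to 5 in Mut. Mrc1 and C1qa had 0 counts in both WT libraries and were at 1.29 to 3.20 and 0.448 to 4.92 CPM in the KO and Mut libraries. C1qb did not have this order, at 0.106 and 17.6 CPM in WT, 11.9 and 6.82 in KO and 0 and 1.03 in Mut. Mertk had 0 counts in both Mut libraries. Adgre1 and Fcgr1 had 0 counts in WT and in replicate 2 of KO and of Mut. The part of these markers, and of the dendritic ones, in the results was not tested. The 7 B cell markers summed to 48.6 to 65.3, 45.6 to 56.0 and 48.9 to 66.4 CPM, also overlapping, of which Cd79b was the largest part. Pax5, the factor that defines B cells, and Ms4a1 had 0 counts in all 6 LSK libraries. The 5 T cell markers, of which Cd4 is also found on dendritic cells, summed to 0.319 to 1.06 CPM in WT, 7.04 to 8.23 in KO and 5.65 to 6.48 in Mut. Cd4 made up most of them in LSK, at 6.39 to 7.12 CPM in KO and 3.46 to 4.93 in Mut. The T cell sum was thus above WT in both other genotypes, with KO above Mut, and its part in the result was not tested.

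The dendritic cell sum was higher in MPP than in LSK in all libraries, and the class II sum was not. Dendritic markers summed to 92.6 to 96.0 CPM in WT, 76.8 to 79.0 in KO and 55.2 to 55.8 in Mut, and the 7 class II genes to 346 to 383, 291 to 308 and 397 to 409. Under TMM scaling Mut was thus lowest for the markers and highest for the class II sum. H2-DMa and Cd74, the largest parts of that sum, had negative differences for MPP Mut against WT under spike-in scaling (-0.52 and -0.28). Neither was called by edgeR there (adjusted p = 0.115 and 0.338), and the median of all genes was -0.588. The means of Ciita had the order of the dendritic sum, WT above KO above Mut, and the part of these cells in its values was not tested.

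**Figure D5:**
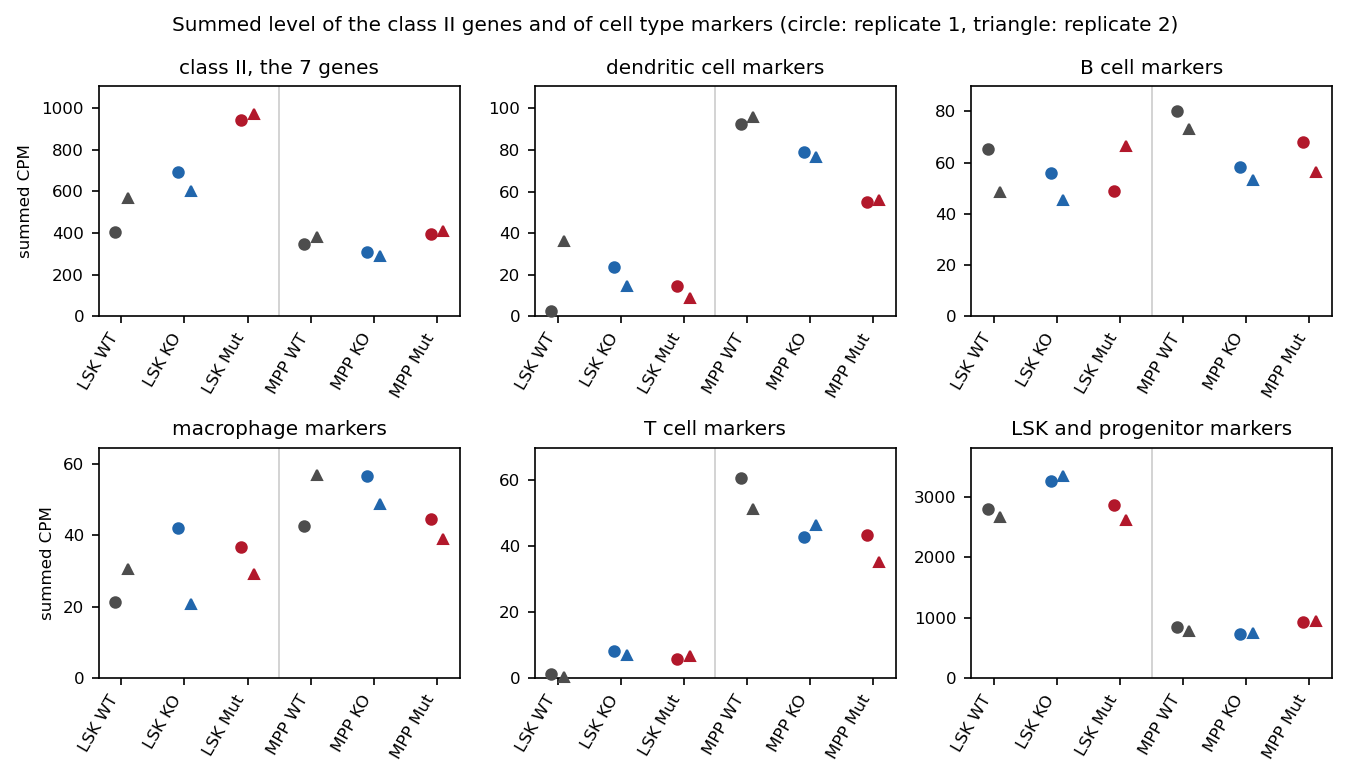
Summed CPM in each library of the 7 class II genes, of 4 sets of markers of other cell types and of the LSK and progenitor markers. Circles and triangles are replicates 1 and 2, and the vertical axes start at 0. The class II sum is highest in LSK Mut, where the dendritic cell sum (8.70 and 14.4 CPM) lies within the range of LSK WT (2.74 and 36.0). Of the 8 dendritic markers, 2 had counts in each LSK WT library (Itgax and Ccr7) and 5 to 8 in those of LSK Mut. The dendritic and T cell sums are highest in MPP.

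The 7 genes followed their common pattern to different degrees. Their log2(CPM + 1) was scaled per gene and averaged, and each gene's Pearson correlation with that mean over the 12 libraries, which includes the gene itself, was 0.961 for H2-Aa, 0.941 for Cd74, 0.909 for H2-Ab1, 0.875 for H2-Eb1, 0.79 for Ciita, 0.684 for H2-DMa and 0.591 for H2-DMb1. The 5 other genes with the highest correlation were Hoxb2 (0.957), B2m (0.953), Nov (0.944), Plekhg1 (0.942) and Aspa (0.934). Apart from B2m these were low genes with 0 counts in both LSK WT libraries, among them Hoxb2, a homeobox gene, at 0.994 and 0.862 CPM in LSK KO, 6.49 and 3.997 in LSK Mut and at most 0.1 in MPP. Nov was at 1.66 and 1.94 CPM in LSK KO, 7.61 and 8.59 in LSK Mut and 0 in the other 8 libraries. These correlations are a description over 12 libraries that are replicate pairs of 6 groups and not independent points.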

How the data were processed

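The authors deposited 1 table of raw counts per gene symbol for each population, with 24538 gene symbols and 92 ERCC spike-ins. Per the labels' protocols, RNA of sorted cells was amplified, barcoded and sequenced as 150 bp read pairs. The submitters' processing notes name Trim Galore 0.4.1, TopHat2 2.0.13, HTSeq 0.6.1, Cufflinks (its role is not given) and build mm10. Whether counting used strand is not given in the sources used here. The 1 column of the MPP table whose name differs from a title in its leading number was taken as MPP KO replicate 2, the sample that shares the rest of the name.

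From the deposited counts, edgeR 4.0.16 in R 4.3.3 gave quasi-likelihood tests after filterByExpr (minimum count 10, minimum total count 15) and TMM scaling without spike-ins, with Benjamini-Hochberg adjustment over all genes tested and a threshold of 0.05. Genotypes were compared in fits of the 6 libraries of a population, and populations and differences of effects in a fit of all 12. Standard errors were derived from the F statistics, and 95% intervals from the fit's degrees of freedom. The script was tested on simulated data. DESeq2 1.42.0, other scalings, no filter, a replicate block, the spread of only the groups compared and each library left out were tried as alternatives. Same-numbered libraries did not deviate together (correlations from -0.0942 to 0.0642 over 10558 genes, within and between populations), so the main fits have no block. Replicates differed by more than sampling noise in every group (chi-square per degree of freedom from 22.1 to 83.2) and were counted separately. The 7 genes, the pathway lists and the marker lists were chosen with earlier results of these data known. Named genes are the 7 members, list genes called in a genotype comparison, up to 4 genes per list with the highest mean CPM, and the 5 other genes with the highest correlation with the members' mean (log2(CPM + 1)). List genes called elsewhere were named after their values were seen. A gene that this rule names is not reported here.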

Additional observations from a re-analysis of the deposited data

Results flagged for a closer look

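For 3 genes the difference between Mut and WT was itself different between LSK and the cells labelled MPP, by edgeR's interaction test with Benjamini-Hochberg adjustment. Of all genes, 2.53% were called in this test, 1.52% of them all with the larger value in LSK. All 3 calls were lost with the replicate number as a block and with the spread of only the groups compared. They also depend on single libraries, as given in the results above. The difference of effects on the log2 scale was 1.13 for Cd74 (95% interval 0.61 to 1.65), 2.72 for H2-Aa (1.45 to 4) and 1.71 for H2-Ab1 (0.877 to 2.54). In each of them both LSK Mut libraries lay above both LSK WT libraries (26.8% of all genes tested). In MPP, Mut lay above WT for Cd74 (the difference changes sign under spike-in scaling) and below it for H2-Aa, and overlapped with it for H2-Ab1.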

How the results depend on the processing

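Of 1134 recomputed differences of the 7 genes, 951 kept their direction and their side of the threshold, 71 passed it newly with the same sign, 66 no longer passed it and 46 changed sign. These 46 were all of values that had not been called in the main fits. Some of them passed the threshold with the new sign, all under spike-in scaling. They were Cd74, H2-Aa, H2-Eb1 and H2-DMb1 for LSK against MPP in WT, and H2-DMb1 in KO. H2-DMa kept its higher level in LSK than in MPP in KO and Mut, and H2-Ab1 in Mut, under all 18 alternatives. With 2 libraries a group and 3 or 6 residual degrees of freedom, calls turn on the estimated spread, and the LSK WT libraries, the least alike, carry much of it. Where a count moved, the cause was not tested.

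DESeq2 called 2 of the 7 genes for LSK KO against WT, 5 for LSK Mut against WT, 2 for LSK KO against Mut, 1 for MPP KO against Mut, 3 for LSK against MPP in WT and 3 for the difference of KO effects. Without a filter on low counts 4 were called for LSK Mut against WT and 2 for LSK against MPP in WT. With DESeq2-type size factors 1 was called for LSK Mut against WT. With the spread of only the groups compared 0 were called for LSK Mut against WT, for LSK against MPP in WT and for the difference of Mut effects. With the replicate number as a block 0 were called for LSK Mut against WT (Cd74 at an adjusted p of 0.0528 by edgeR and H2-Ab1 at 0.0737) and 0 for the difference of Mut effects. The numbers do not pair the libraries.

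With libraries scaled by spike-ins 6 were called for LSK Mut against WT, 6, 7 and 7 for LSK against MPP in WT, KO and Mut, and 7 for the difference of Mut effects. That scaling moved the median of all genes to 0.508 for LSK KO against WT, 1.1 for LSK Mut against WT, -0.588 for LSK KO against Mut, -0.588 for MPP Mut against WT, 0.649 for MPP KO against Mut, 4.17, 4.66 and 5.88 for LSK against MPP in WT, KO and Mut, and 0.51 and 1.74 for the differences of KO and Mut effects. Signs changed under it for MPP KO against WT in H2-Ab1 (0.006027) and H2-Eb1 (0.0187), for MPP Mut against WT in Cd74 (-0.2777), H2-DMa (-0.5162) and H2-DMb1 (-0.2684), for MPP KO against Mut in H2-Ab1 (0.6519), H2-DMa (0.2967) and H2-DMb1 (0.4339), for LSK against MPP in WT in Cd74 (3.746), H2-Aa (3.349), H2-Eb1 (3.897), H2-DMb1 (4.104) and Ciita (0.004509), for LSK against MPP in KO in H2-DMb1 (4.549), and for the difference of KO effects in H2-DMb1 (0.445). H2-Ab1, at about 0 for MPP KO against Mut, also changed sign with DESeq2-type size factors (0.001453), DESeq2 (0.001406), only the groups compared (0.002188) and the replicate block (0.002645), and H2-DMb1 with the block in the difference of KO effects (0.00316).

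With each library left out in turn, the number called ranged from 0 to 5 for LSK KO against WT, 0 to 6 for LSK Mut against WT, 0 to 2 for LSK KO against Mut, 0 to 4, 1 to 3 and 2 to 5 for LSK against MPP in WT, KO and Mut, and 0 to 3 and 0 to 5 for the differences of KO and Mut effects, and was 0 throughout for the MPP genotype comparisons. Differences that changed sign ranged, for LSK KO against WT, from -0.1558 to 0.5539 (H2-Ab1), -0.005515 to 0.6225 (H2-DMa) and -0.1272 to 0.3472 (H2-DMb1). For MPP KO against WT they ranged from -0.2452 to 0.1477 (H2-Ab1), -0.2496 to 0.1326 (H2-Eb1) and -0.004119 to 0.2298 (H2-DMb1), for MPP Mut against WT from -0.2457 to 0.1477 (H2-Ab1) and -0.1162 to 0.3286 (H2-DMa), and for MPP KO against Mut from -0.07158 to 0.0683 (H2-Ab1). For LSK against MPP they ranged in WT from -1.605 to 0.2794 (H2-Eb1) and -0.3284 to 0.1623 (H2-DMb1) and in KO from -0.1795 to 0.04416 (H2-DMb1). The differences of effects ranged for KO from -0.07511 to 0.6528 (H2-Ab1) and -0.2302 to 0.2607 (H2-DMb1), and for Mut from -0.0314 to 0.46 (H2-DMb1).

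Over all genes, edgeR called 6, 168 and 8 for LSK KO against WT, Mut against WT and KO against Mut, 47, 29 and 31 for these comparisons in MPP, 3361, 2128 and 1229 between the populations in WT, KO and Mut, and 102 and 355 for the differences of KO and Mut effects. In that order, DESeq2 called 593, 1398, 116, 272, 302, 288, 4560, 3163, 2249, 580 and 1093, spike-in scaling 71, 3002, 8, 15, 2297, 3254, 11550, 12011, 12570, 2 and 5428, no filter 50, 475, 22, 189, 217, 195, 3811, 2527, 1715, 278 and 662, only the groups compared 3, 5, 36, 26, 17, 21, 953, 3509, 1696, 7 and 54, and the replicate block 5, 35, 5, 23, 19, 26, 3125, 1882, 1092, 34 and 248. With each library left out the ranges were 0 to 1690, 5 to 2631, 2 to 65, 10 to 41, 15 to 28, 10 to 34, 2018 to 4198, 991 to 3325, 540 to 2296, 4 to 903 and 88 to 1425.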
